A study of Mus musculus with 4 samples.

Results

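The transcripts described here belong to glycolysis and the pentose phosphate pathway, read in germinal centre (GC) and naive B cells of the mouse. The genes were listed by name, 33 in all, from glucose uptake to the entry of pyruvate into mitochondria, and every probe set annotated to exactly 1 of these symbols was taken. This gave 67 probe sets for 30 genes, of 18194 genes with such a probe set on the array. Gpi1, Eno1 and G6pdx had none and are not described further.

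The study sorted 4 populations from C57BL6/J wild type mice and hybridised each to 1 array. GC B cells were B220+PNA+Fas+ and naive B cells were B220+PNA-Fas-. The lymph node pair, called pLN, came from peripheral lymph nodes of mice given TNP-KLH in incomplete Freund's adjuvant. The Peyer's patch pair, called PP, came from the lymphoid follicles of the gut of mice that received no treatment. Each population came from a pool of 3 to 5 mice, so variation between mice was not measured, and precision is limited by having 1 array per population. All cells passed through the same B220, PNA and Fas stain.

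Glycolysis splits glucose into pyruvate in the cytosol, and lactate dehydrogenase turns that pyruvate into lactate, which leaves the cell through monocarboxylate transporters. The pentose phosphate pathway branches off at glucose 6-phosphate: its oxidative arm makes NADPH, and its non-oxidative arm exchanges sugars between ribose 5-phosphate, the backbone of nucleotides, and glycolysis. GC B cells divide fast and naive B cells rest, which is why sugar metabolism is often compared between them.

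Markers of the sort matched the labels. Of 7 measured GC markers, 6 were called higher in GC cells, against 25.7% of all genes tested. Of 5 measured naive markers, 5 were called lower, against 24.9%. Among the GC markers, Fas was itself used for the sort. Rgs13, Gcsam, Mybl1 and S1pr2 were below the detection level (explained below) on naive PP. They entered the test through the GC arrays alone, where they were high, which limits what their calls can show. All 5 measured pan-B cell genes were above the level on every array. Of these, Cd79a was called lower in GC cells (-1.40, limma adjusted p = 0.0142), and the other 4 were not called. Of 6 measured T cell markers, 5 to 6 lay above the level on the GC arrays, 5 on naive pLN and 2 on naive PP, with summed signals between 3071 and 15170, mostly from Cd2, which B cells also express; Cd2 and Cd8a were called lower and Cd3g higher in GC cells (1.62, adjusted p = 0.0128, naive signals below the level). Of 6 myeloid markers 1 or 2 were above the level on any array (summed signals 331.8 to 439.7), of which Lyz2 was called higher in GC cells (2.31, adjusted p = 9.2e-05; 244.2 and 368.9 against 42.3 and 50.3, the latter both below the level), and of 4 erythroid markers none was. Of 6 gut epithelial markers, 1 was above the level on each pLN array, 4 on GC PP and 5 on naive PP, where the sum reached 3638. Cd3g and Lyz2 also entered the test through the GC arrays alone. The part of T, myeloid, erythroid and gut cells in the results was not tested.

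Signals were scaled so that the 2% trimmed mean of every array was 500, and folds are differences of log2(signal + 18.0), which understates changes of dim genes. The detection level is the 90th percentile of probe sets of genes of other tissues, and was 30.5 for GC and 66.0 for naive cells of pLN, and 110.4 for GC and 134.8 for naive cells of PP. Of the 30 genes, 30 were above it on each pLN array and 27 on each PP array, by the brightest probe set of each gene, which represents the gene below. A probe set entered the limma test if it exceeded the level on both GC or both naive arrays; tissue was a block, and a result is "called" at an adjusted p under 0.05 over all 21105 probe sets tested. This covered 54 of the 67 probe sets and 29 of the 30 genes.

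Gapdh, a member itself, also showed that the naive arrays were biased to the 3' end of transcripts. Its 3 probe sets are the manufacturer's control sets at the 5' end, the middle and the 3' end of the transcript. The 5' set read 7068 for GC and 948.8 for naive cells in pLN, and 6473 and 328.0 in PP. The middle set read 8217, 7454, 8094 and 9594 in the same order, and the 3' set 10460, 17780, 10780 and 31610. GC cells were thus the brighter population at the 5' end and the dimmer one at the 3' end, with the groups close in the middle. The GC-naive log2 fold was 3.55 at the 5' end (limma adjusted p = 1.5e-09), -0.05 in the middle (adjusted p = 0.93) and -1.16 at the 3' end (adjusted p = 0.048). The 3' set exceeded the 5' set 1.48 and 1.67 times on the GC arrays and 18.7 and 96.4 times on the naive arrays, pLN first. This bias moved with cell type in both tissues, and its part in any GC-naive fold below was not tested.

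The first comparison asked which of these genes differ between GC and naive B cells. The pathway did not move one way: by their brightest probe sets, 6 of 29 tested genes were higher in GC cells, 9 were lower and 14 were not called. Among all 9791 genes tested, 50.6% were called, 25.7% higher and 24.9% lower, so the 15 of 29 called here are close to the background. The median log2 fold of the 29 genes was -0.23, against -0.05 over all tested genes. The brightest eighth of all tested genes, which holds 11 of the 29, had a median of -0.94, and these 11 a median of -0.32. The genes called higher were Slc16a1, Rpe, Hk2, Slc2a3, Pdk3 and Rpia. Those called lower were Eno3, Slc2a1, Aldoa, Pdk1, Hk1, Tkt, Pfkp, Gapdh and Pfkl.

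The counts rest on the scaling and on the probe sets. The bacterial and phage hybridisation controls were brighter on the naive arrays (geometric mean signals of 8569 and 17090, against 4855 and 4925 on the GC arrays). With arrays scaled to these controls, 11 genes were higher and 1, Slc2a1, was lower. Of all 9790 genes then tested, 3330 were higher and 182 lower. Averaging a gene's probe sets gave 7 higher and 4 lower, beside 2808 higher and 1677 lower of all 9026 genes then tested. With either GC array left out, fewer genes were called, in the pathway and over all genes. With naive pLN left out, more were called in both. The call of Slc2a1 held under every alternative run. Those of Slc16a1 and Rpe held wherever they were tested. Both genes dropped out when signals on all 4 arrays had to be above the level, as naive PP was below it. The other 12 lost the call in at least 1 alternative, and Gapdh, Pfkl, Pfkp and Pdk1 also changed sign.

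**Figure D1:**
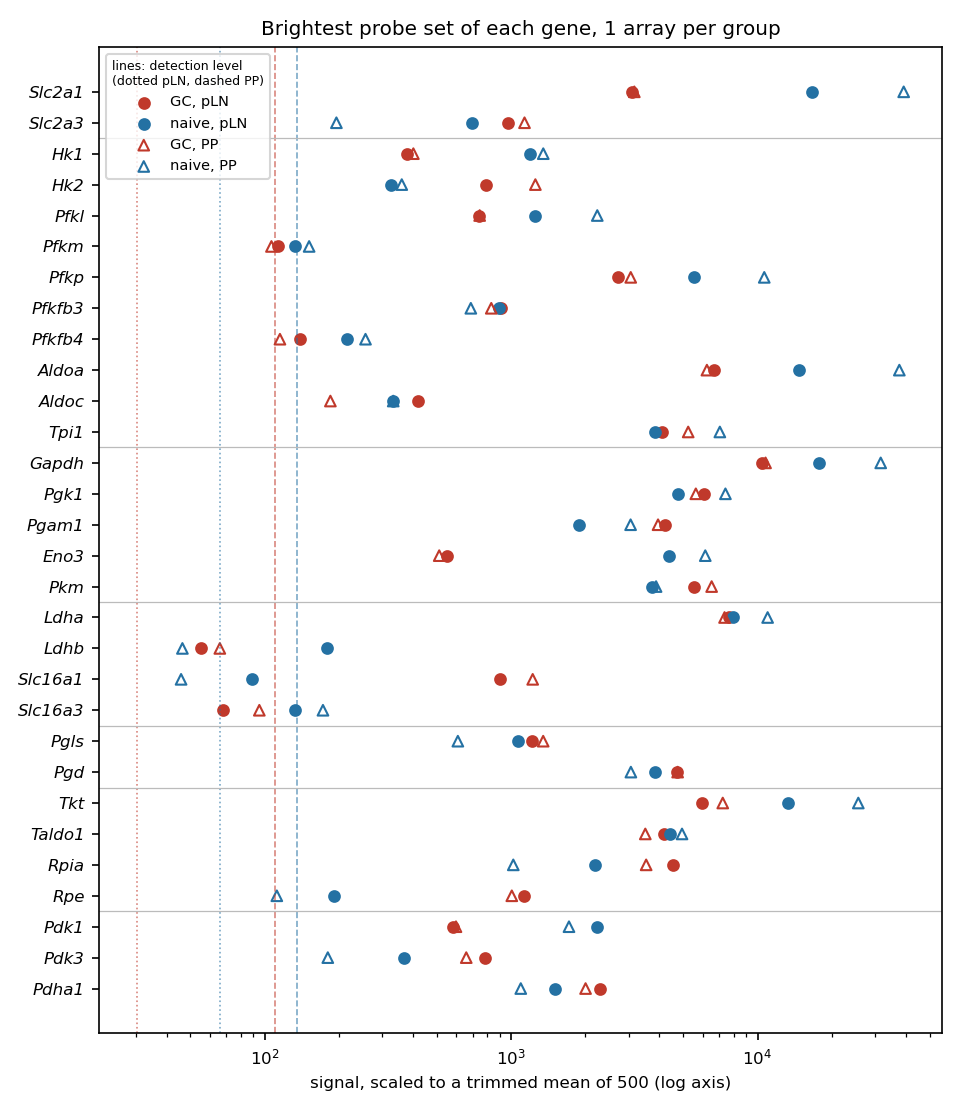
Signal of the brightest probe set of each gene on the 4 arrays, on a log axis, in pathway order; circles are pLN, triangles PP, red GC and blue naive cells, and vertical lines mark each array's detection level. Slc2a1 and Eno3 show naive signals far above both GC signals, and Slc16a1 and Rpe the opposite.

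The promoters of the 3 genes whose calls held where tested are shown, with that of Ldha, a lactate dehydrogenase gene not called, for contrast. They are the 250 bases before an annotated start in RefSeq (mouse build GRCm38.p6), given 5' to 3' on the gene's strand. Capitals mark ACGTG, the core of the element bound by hypoxia-inducible factor, on either strand (read as CACGT on the other). The E-box CACGTG, bound by Myc and related factors, holds this core on both strands, so the motifs overlap.
Slc2a1, chr4:119108495-119108744, + strand: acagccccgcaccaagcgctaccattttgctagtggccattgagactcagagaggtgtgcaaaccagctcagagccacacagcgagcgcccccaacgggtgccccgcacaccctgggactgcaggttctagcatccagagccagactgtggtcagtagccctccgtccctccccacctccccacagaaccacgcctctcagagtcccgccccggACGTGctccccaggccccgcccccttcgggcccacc
Slc16a1, chr3:104638414-104638663, + strand: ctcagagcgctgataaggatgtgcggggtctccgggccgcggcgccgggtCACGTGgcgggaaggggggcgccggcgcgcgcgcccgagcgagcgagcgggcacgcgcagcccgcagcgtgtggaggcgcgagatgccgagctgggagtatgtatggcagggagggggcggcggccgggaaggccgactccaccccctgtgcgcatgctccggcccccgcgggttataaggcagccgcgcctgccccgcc
Rpe, chr1:66700581-66700830, + strand: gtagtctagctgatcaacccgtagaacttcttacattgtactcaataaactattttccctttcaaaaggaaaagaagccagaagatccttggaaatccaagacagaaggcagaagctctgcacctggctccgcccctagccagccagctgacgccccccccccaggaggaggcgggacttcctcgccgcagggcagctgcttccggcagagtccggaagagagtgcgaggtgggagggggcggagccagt
Ldha, chr7:46845554-46845803, + strand: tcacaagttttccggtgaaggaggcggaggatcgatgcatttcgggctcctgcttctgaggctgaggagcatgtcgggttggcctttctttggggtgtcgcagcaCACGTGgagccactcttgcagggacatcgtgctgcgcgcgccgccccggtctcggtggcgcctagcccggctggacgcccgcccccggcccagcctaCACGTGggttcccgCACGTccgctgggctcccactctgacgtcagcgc
ACGTG or its reverse occurred 1 time before Slc2a1, 2 times before Slc16a1 as 1 CACGTG, and 5 times before the start of Ldha shown, with 2 CACGTG among them. The other annotated start of Ldha in the table, with the window chr7:46846832-46847081, had 0 copies. No copy lay in the window of Rpe. Of the 33 genes, 32 matched the promoter table, and 12 of these (37.5%) had ACGTG on either strand in at least 1 promoter, against 18.5% of all 27025 genes in the table, which include many non-coding and predicted genes. CACGTG was found for 4 of 32 (12.5%), against 6.86% of all. By call, 3 of 5 matched genes that were higher, 2 of 9 lower and 7 of 14 not called had ACGTG, so genes with the motif stood in every class.

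Glucose uptake gave opposite values for its 2 transporters. Slc2a1 encodes GLUT1, the widespread basal glucose transporter, and its brightest probe set read 3102 in GC and 16630 in naive cells from pLN, and 3163 and 39180 in those from PP. Both naive signals were well above both GC signals, by 5.36-fold in pLN and 12.4-fold in PP. The log2 fold over the 2 tissues was -3.02 ± 0.48 (limma's moderated SE, adjusted p = 6.6e-07). This SE, like those below, mainly follows the variance of probe sets of like brightness, not the gene's own spread. The 2 other probe sets of Slc2a1 fell as well, by 3.14 and 1.80 on the log2 scale, so all 3 were called in 1 direction. Slc2a3 encodes GLUT3, a transporter with high affinity for glucose, and read 972.3 and 1134 on the GC arrays of pLN and PP, against 693.0 and 195.6 on the naive arrays. The GC signals were the higher ones in both tissues, narrowly in pLN. Its log2 fold was 1.45 ± 0.44 (adjusted p = 0.0050), composed of 0.48 in pLN and 2.43 in PP. With naive PP left out it was 0.59 and not called (adjusted p = 0.115), and with tissue left out of the model it was not called either. A second probe set of Slc2a3 also rose (1.91, adjusted p = 4.6e-04), below the level on naive PP, and 2 more were below the level on every array.

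Hexokinase traps glucose as glucose 6-phosphate, and its isoforms also took opposite values. Hk1, the isoform of most resting tissues, read 378.6 on GC pLN and 401.4 on GC PP, against 1191 and 1351 on the naive arrays. The log2 fold of Hk1 was -1.66 ± 0.42 (limma adjusted p = 9.2e-04). Its other probe set was above the level on 1 array only, so this call rests on 1 probe set. Hk2, the inducible isoform, read 790.3 and 1255 in GC cells, pLN first, against 327.1 and 360.2 in naive cells. It rose by 1.49 ± 0.43 (limma adjusted p = 0.0029) and has 1 probe set. Under scaling to the hybridisation controls Hk1 stood at -0.39 (adjusted p = 0.761) and Hk2 at 2.74 (adjusted p = 0.011).

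Phosphofructokinase, the committed step of glycolysis, is built from 3 kinds of subunit. Pfkp, the platelet-type subunit, read 2712 and 3059 in GC cells and 5538 and 10650 in naive cells of pLN and PP, and fell by 1.41 ± 0.45 (adjusted p = 0.0073). A second, dimmer probe set of Pfkp was called the other way, at 1.45 (adjusted p = 0.015), but lay below the level on both naive arrays, so it entered the test through the GC arrays and its fold is at least 0.72 on the log2 signal scale. Pfkl, the liver-type subunit, read 740.5 and 745.8 in GC cells and 1246 and 2238 in naive cells, with a log2 fold of -1.15 ± 0.42 (adjusted p = 0.020). Its other probe sets stood at -0.17 and 0.74 and were not called. Pfkm, the muscle-type subunit, lay close to the detection level and was not called (-0.32 ± 0.49). Pfkfb3 and Pfkfb4, which set the level of a sugar phosphate that activates phosphofructokinase, were not called, at 0.15 ± 0.42 and -0.81 ± 0.47.

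The aldolase step showed one large difference. Aldoa, the main aldolase outside liver and brain, read 6666 and 6232 in GC cells and 14690 and 37620 in naive cells of pLN and PP. It fell by 1.86 ± 0.50 (adjusted p = 0.0015). Of its 5 probe sets, 4 were called lower, with log2 folds between -1.11 and -1.86, and the dimmest was not called (-0.35); all of them end in _x_at, a class in which some probes can match other transcripts. Aldoc, the brain-type isoform, was not called (-0.23 ± 0.45), with 0.32 in pLN and -0.79 in PP. Tpi1, which interconverts the 2 triose phosphates, read 4115 and 5233 in GC cells and 3845 and 7033 in naive cells by its brightest probe set, and was not called (-0.16 ± 0.45). Another probe set of Tpi1 read 4368 and 5371 in GC cells and 1295 and 1059 in naive cells, and was called higher at 2.03 (adjusted p = 9.3e-05).

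In lower glycolysis, where the ATP is made, 2 of 5 genes were called, both lower. Over all genes tested, 50.6% were called and 24.9% were lower. Eno3, the muscle-type enolase, read 549.1 on GC pLN and 511.1 on GC PP, against 4393 and 6138 on the naive arrays. These gaps, 12.0-fold in PP, gave the lowest log2 fold of the 29 genes, -3.25 ± 0.42 (adjusted p = 8.2e-09), from its only probe set; under scaling to the hybridisation controls it was -1.96 (adjusted p = 0.0509). Gapdh was called lower by its 3' set, as given above, and reversed to 0.15 with quantile normalization. Pgk1, which makes the first ATP of the pathway, was not called by its brightest probe set (-0.03 ± 0.46), which read 6056 and 5619 in GC cells and 4772 and 7409 in naive cells. Its 2 other probe sets were called higher, at 2.76 (adjusted p = 7.3e-07) and 1.13 (adjusted p = 0.028). Pgam1, the phosphoglycerate mutase, stood at 0.76 ± 0.44 and Pkm, the pyruvate kinase of non-liver cells, at 0.65 ± 0.45; neither was called. Pkm read 5538 and 6514 in GC cells and 3745 and 3876 in naive cells.

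**Figure D2:**
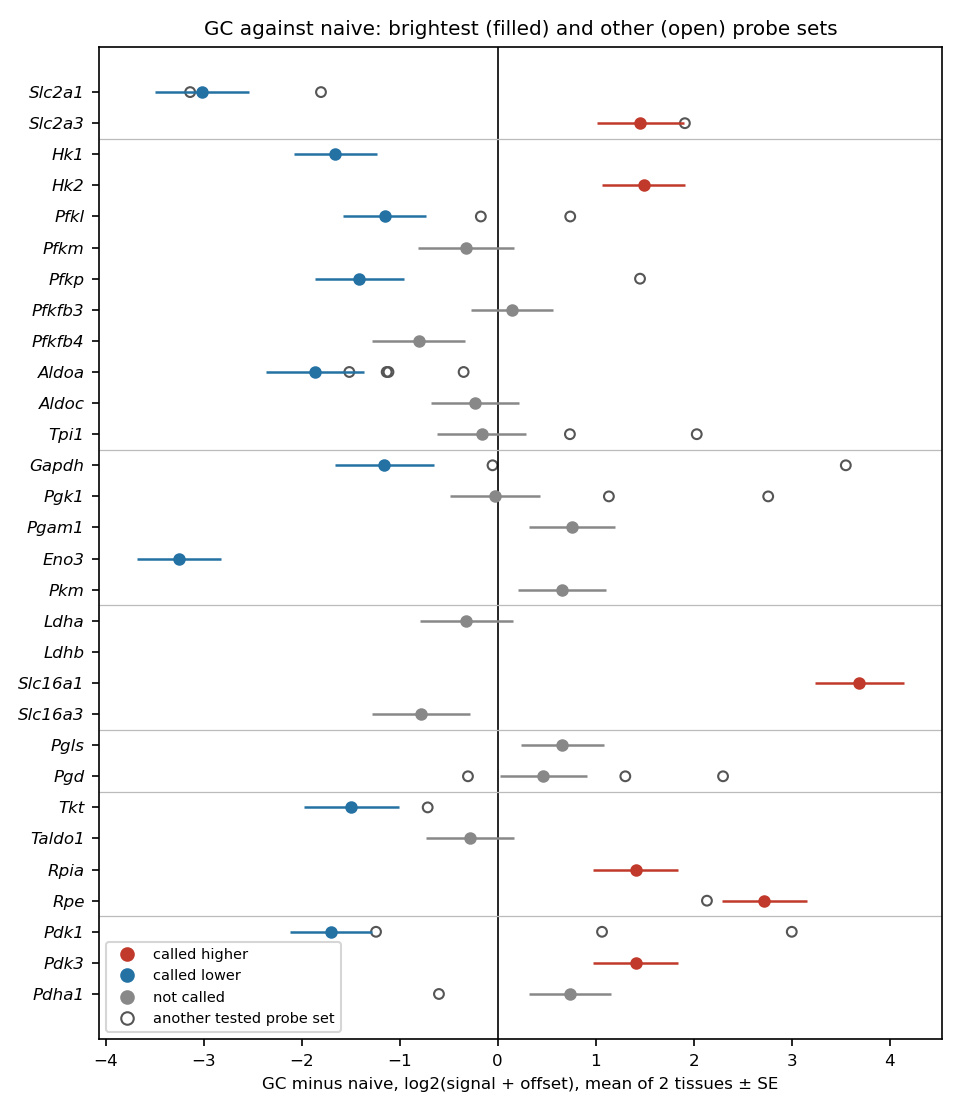
GC minus naive on the log2(signal + offset) scale, averaged over the 2 tissues, for the 54 tested probe sets in pathway order; filled points with bars are the brightest probe set ± SE, open circles the others, red called higher, blue called lower, grey not called. The 3 probe sets of Slc2a1 lie left of 0 and both of Rpe right of it, while those of Gapdh span from -1.16 to 3.55; Ldhb was not tested.

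Among the lactate genes, 1 of 3 tested was called, against 50.6% of all genes tested. The called gene was an exporter that had the highest log2 fold of the 29 genes by brightest probe set. Slc16a1 encodes MCT1, which carries lactate and pyruvate across the membrane, and read 898.8 on GC pLN and 1224 on GC PP, against 89.1 and 45.8 on the naive arrays. The naive PP signal was below the level, so the PP ratio is at least 9.08-fold, beside 10.1-fold in pLN. The log2 fold was 3.69 ± 0.45 (adjusted p = 1.6e-09), or at least 3.26 on the log2 signal scale with naive PP at its level. The probe set entered the test through the GC arrays alone, where it was high, which limits what its p-value can show. Its second probe set was below the level on all arrays. Slc16a3, which encodes the lactate exporter MCT4, was dim, at 67.6 and 95.2 in GC cells and 132.3 and 172.5 in naive cells, and was not called (-0.78 ± 0.50). Ldha, which makes lactate from pyruvate, was bright everywhere, at 7640 and 7349 in GC cells and 7946 and 10990 in naive cells, and was not called (-0.32 ± 0.47). Ldhb, the heart-type subunit, was not tested: its brightest probe set was above the level on both pLN arrays, at 55.3 in GC and 179.7 in naive cells, and below it on both PP arrays.

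Of the 6 pentose phosphate genes tested, 3 were called, against 50.6% of all genes tested. In the oxidative arm, neither Pgls (0.66 ± 0.42) nor Pgd (0.47 ± 0.44), the lactonase and the second NADPH-making dehydrogenase, was called. Pgd read 4717 and 4741 in GC cells and 3820 and 3063 in naive cells, and 2 of its 3 other probe sets were called higher, at 2.30 (adjusted p = 1.1e-05) and 1.30 (adjusted p = 0.010). In the non-oxidative arm, 2 of 4 genes were higher and 1 lower, against 25.7% and 24.9% of all genes tested. Rpe, the epimerase of ribulose 5-phosphate, read 1133 and 1007 in GC cells, against 190.5 and 112.1 in naive cells. The naive PP signal was below the level, so the PP ratio is at least 7.47-fold, beside 5.95-fold in pLN. Rpe rose by 2.72 ± 0.43 (adjusted p = 7.2e-07), by its brightest probe set. That probe set entered the test through the GC arrays alone, where it was high, which limits what its p-value can show. A second probe set, at 2.14, lay below the level on both naive arrays. It too could enter only through the GC arrays, so it adds no separate support.

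Rpia, the isomerase that yields ribose 5-phosphate, read 4527 and 3533 in GC cells and 2190 and 1021 in naive cells. It rose by 1.41 ± 0.43 (adjusted p = 0.0053), from its only probe set. Tkt, the transketolase that links the arm back to glycolysis, went the other way, with 5966 and 7227 in GC cells against 13340 and 25640 in naive cells. Its log2 fold was -1.49 ± 0.48 (adjusted p = 0.0084); its second tested probe set was not called, at -0.71 (adjusted p = 0.17). Taldo1, the transaldolase, was not called (-0.28 ± 0.44).

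At the gate to the mitochondrion, Pdk3, a kinase that switches off pyruvate dehydrogenase, read 781.1 and 658.0 in GC cells and 367.1 and 180.5 in naive cells. It rose by 1.41 ± 0.43 (adjusted p = 0.0054). Pdk1, a kinase of the same enzyme, had 4 tested probe sets, all called, of which 2 were higher and 2 lower. The brightest read 581.3 and 597.7 in GC cells and 2227 and 1718 in naive cells (-1.70 ± 0.42, adjusted p = 6.7e-04), and another probe set was also lower (-1.24). The one with the highest fold read 658.2 and 662.7 in GC cells and 70.0 and 63.7 in naive cells. It was higher by 3.00 (limma adjusted p = 2.6e-07), with naive PP below the level. That probe set entered the test through the GC arrays alone, where it was high, which limits what its p-value can show. The remaining one was higher by 1.06 (adjusted p = 0.030). The direction of Pdk1 is therefore not settled by these arrays. Pdha1, a catalytic subunit of pyruvate dehydrogenase, was not called (0.74 ± 0.42), and its second probe set stood at -0.60.

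**Figure D3:**
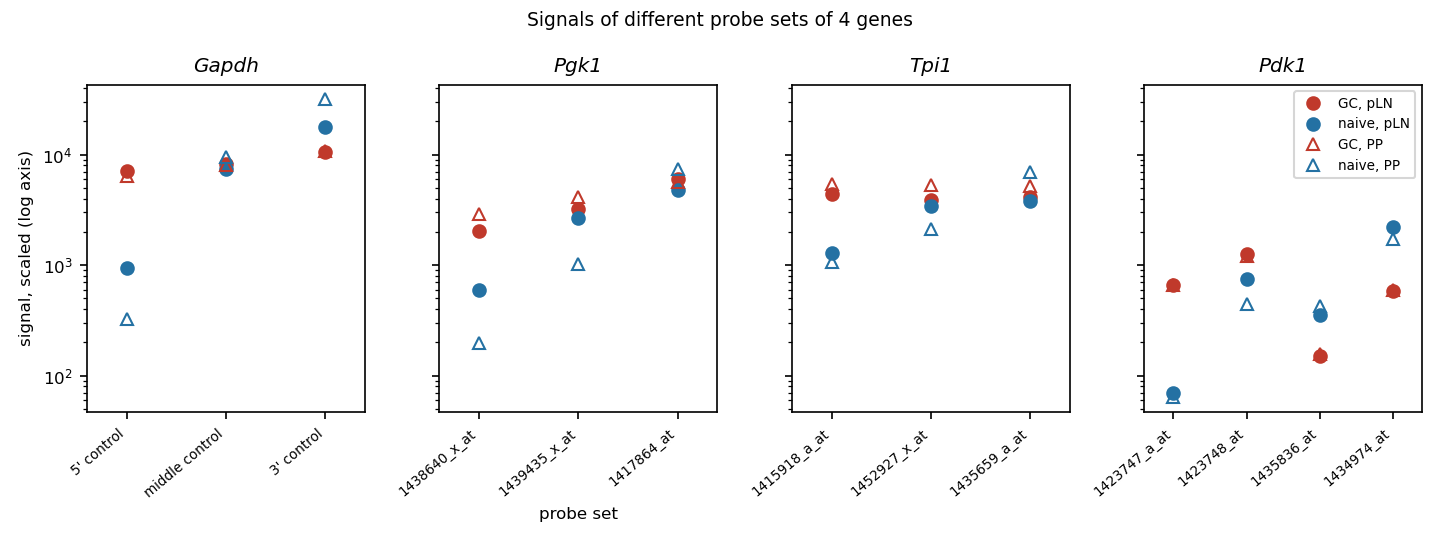
Signals, on a log axis, of the tested probe sets of Gapdh, Pgk1, Tpi1 and Pdk1 on the 4 arrays; Gapdh is ordered from the 5' to the 3' control, the others from the highest to the lowest GC-naive fold. The GC points of a probe set lie near each other, while naive points pass from below them to near or above them within every gene.

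Disagreement between probe sets of 1 gene was common on these arrays. Of the 13 genes with 2 or more tested probe sets, 8 had folds of both signs, and 3 (Pfkp, Gapdh and Pdk1) were called both ways, Pfkp through the probe set that was below the level on both naive arrays. Among all 4607 genes with 2 or more tested probe sets, 47.5% had both signs and 11.0% were called both ways. The median gap between the highest and lowest fold of a gene was 1.89 in the 13 genes and 1.60 over all such genes. Over all tested probe sets of the pathway, 17 of 54 were higher and 15 lower; over all probe sets tested 52.7% were called, 34.1% higher and 18.6% lower. Only Slc2a1 (3 lower), Slc2a3 (2 higher) and Rpe (2 higher) had every tested probe set called in 1 direction, among the genes with 2 or more, but the second of Slc2a3 and both of Rpe entered the test through the GC arrays alone, so nothing is read from their shared direction. The probe sets carry no position in the annotation used, so apart from Gapdh they could not be ordered along the transcript.

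Other genes of the pathways, from a list of 63 of which 59 had a probe set, gave shares near the 25.7% and 24.9% of all genes: of 42 tested, 11 were higher, 10 lower and 21 not called, with a median of 0.00. Among the isoforms and gluconeogenic genes, Bpgm, which diverts a glycolytic intermediate to bisphosphoglycerate, was higher (1.47 ± 0.42) and G6pc3, a glucose 6-phosphatase, lower (-1.81 ± 0.43). Slc2a9, a urate and hexose transporter, was lower (-3.07 ± 0.46), with GC PP below the level. Prps1, which turns ribose 5-phosphate into the precursor of nucleotides, read 1321 and 1652 in GC cells and 432.6 and 150.4 in naive cells (2.44 ± 0.44, adjusted p = 6.9e-06). Shpk, the kinase of sedoheptulose, was lower (-1.76 ± 0.47), with GC PP below the level. Slc2a9 and Shpk thus entered the test through the naive arrays alone, where they were high, which limits what these calls can show.

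Around pyruvate, Mpc1, a subunit of the mitochondrial pyruvate carrier, was higher (1.49 ± 0.43). Pdk2, a further kinase of pyruvate dehydrogenase, and Slc16a7, the monocarboxylate transporter MCT2, were lower (-2.60 ± 0.53 and -2.92 ± 0.49). Pdk2 was below the level on both GC arrays, so its decrease is at least 12.1-fold in pLN but only 1.44-fold in PP. The geometric mean of these bounds is 4.18-fold. Slc16a7 was below the level on GC PP. Pdk2 and Slc16a7 entered the test through the naive arrays alone. Among 14 tested regulators, 4 were higher and 3 lower, against 25.7% and 24.9% of all genes tested. Hif1a, the oxygen-regulated subunit of hypoxia-inducible factor, read 4438 and 4922 in GC cells and 1008 and 290.4 in naive cells (3.06 ± 0.44, adjusted p = 7.8e-08). Prkaa1, a catalytic subunit of the energy sensor AMPK, was higher (2.80 ± 0.46), as was the kinase gene Akt2 (1.67 ± 0.47). Both were below the level on naive PP. They entered the test through the GC arrays alone, where they were high, which limits what these calls can show. Other tested probe sets of Akt2, at -0.91 and 0.64, were not called. Mtor, the growth-signalling kinase, was lower by its brightest probe set (-1.80 ± 0.43). Its other tested probe sets, at -0.99 and -0.40, were not called. Myc was not called (0.97, limma adjusted p = 0.0517).

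The GC-naive difference was then read within each tissue, where 1 array faces 1 array and no test is possible. In pLN, 6 of 30 genes above the level on the brighter array exceeded 2-fold upwards in GC cells and 8 downwards, against 20.2% and 23.9% of all genes. In PP, 7 of 29 were higher and 10 lower, against 30.9% and 28.5%. All 15 called genes had the same sign in both tissues, as had 99.6% of all called genes, which a call over both tissues nearly requires. The fold was larger in PP for 14 of them as measured, against 78.4% of all called genes, and for 13 with signals under the level set to it. The exceptions were then Pdk1 (-1.91 in pLN and -1.50 in PP) and Slc16a1, whose naive PP signal was below the level. The 3' to 5' gap of Gapdh was also wider in PP, and its part in the larger folds was not tested.

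**Figure D4:**
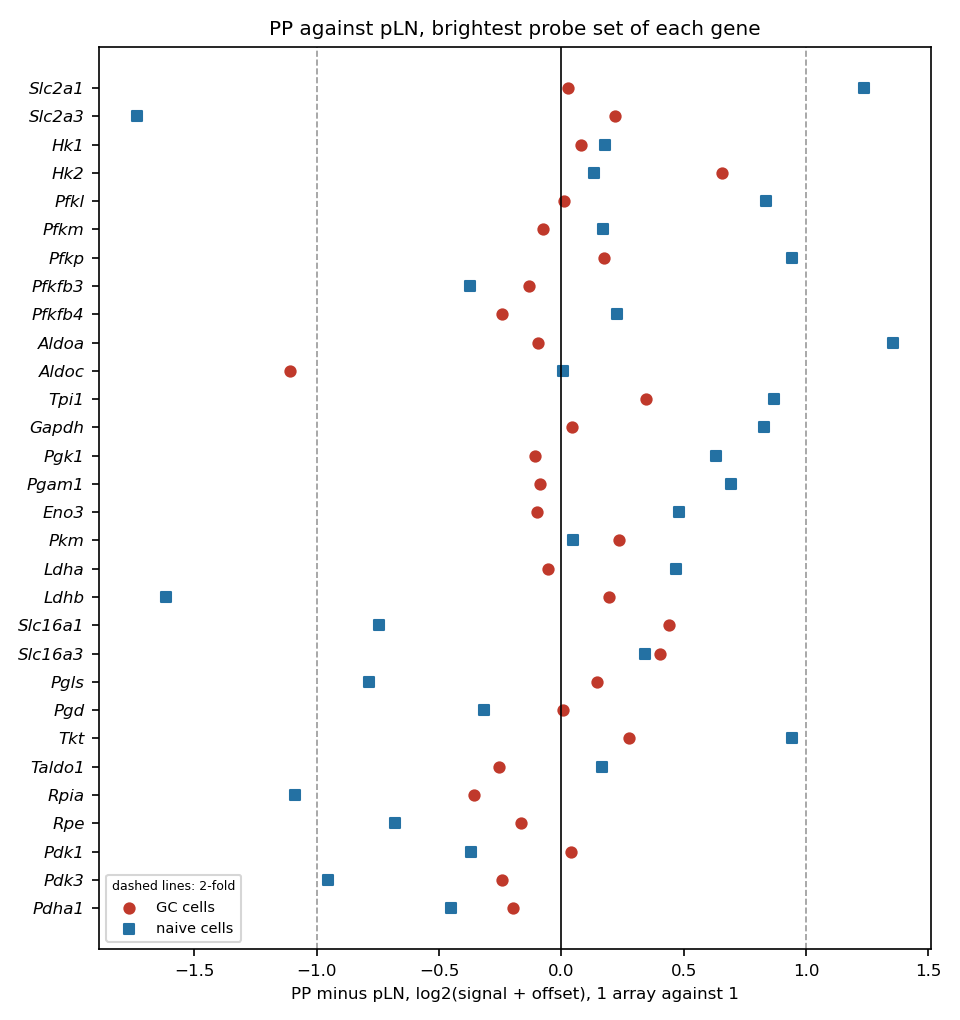
PP minus pLN on the log2(signal + offset) scale for the brightest probe set of each of the 30 genes, 1 array against 1; red circles are GC cells, blue squares naive cells, and dashed lines mark 2-fold. GC points cluster near 0 with Aldoc beyond the 2-fold line, and naive points spread wider, from Slc2a3 (-1.73) to Aldoa (1.36).

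The last comparison set Peyer's patches of untreated mice against lymph nodes of immunised mice, so that tissue, immunisation and pool of mice cannot be told apart. Few genes differed by 2-fold between the 2 GC arrays, in this pathway as over all genes. Of 28 genes above the level on the brighter array, none was 2-fold higher in PP and 1, Aldoc, was 2-fold lower, against 3.64% and 1.96% of all genes. Aldoc read 419.6 on GC pLN and 184.9 on GC PP. The next largest gap between the GC arrays was that of Hk2, 0.65 higher in PP on the log2 scale.

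The naive arrays lay further apart. Slc2a1 and Aldoa were at least 2-fold higher on naive PP and Slc2a3 and Rpia at least 2-fold lower, of 30 genes. With Ldhb, which passed 2-fold only through a signal below the level, 2 were higher and 3 lower as measured, against 8.83% and 16.0% of all genes. Slc2a1 differed by 1.24 and Aldoa by 1.36 on the log2 scale, Slc2a3 by -1.73 and Rpia by -1.09. Ldhb read 179.7 on naive pLN and 46.4, below the level, on naive PP, so its gap is bounded only at 1.33-fold or more. The SD of the log2 differences was 0.80 over the 30 genes and 0.91 over all 9837. The Gapdh 3' to 5' ratios of 18.7 and 96.4 on these arrays, and the 5 gut epithelial markers above the level on naive PP against 1 on naive pLN, moved with this comparison, and their part in it was not tested. Among GC arrays, whose Gapdh ratios were 1.48 and 1.67, the gut markers above the level also went from 1 to 4.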

How the data were processed

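RNA of 4 sorted B cell populations, isolated with TRIzol per the labels' protocols, was labelled with biotin and hybridised to 1 single-colour array each. The authors deposited linear intensities, made with GCOS per the submitters' processing notes (no version), and the median of each array is 1. Their algorithm is not given in the sources used here, and any scaling target likewise. The platform annotation gives a single symbol for 34958 of 45101 probe sets and several for 932, and does not list 9211. By Entrez identifier, 34754 were found in RefSeq, with 0 symbols updated. 0 columns were left unused.

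Arrays were scaled to a 2% trimmed mean of 500. The median of 57 probe sets of 30 genes of other tissues, 18.0, was added before log2, and their 90th percentile was the detection level. The test was limma's (limma 3.58.1 in R 4.3.3), blocked by tissue, with eBayes trended on intensity and p adjusted by Benjamini-Hochberg over 21105 probe sets. With 1 residual degree of freedom against 55.7 of the prior, SEs mainly follow the signal's brightness. The p-values thus set a fold against disagreement between tissues pooled over probe sets of like brightness. They hardly reflect a gene's own disagreement between tissues, and do not measure variation between mice. The script was tested on simulated data. Comparisons of 1 array with 1 array are counted at 2-fold or more, with no test. The members and lists were chosen with earlier results of these data known. All members are named, with the 6 largest called folds either way of the other list. No replicate numbers are given in the labels. Protein sequences were not used here.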

Additional observations from a re-analysis of the deposited data

Results flagged for a closer look

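In 5 probe sets above the detection level on all 4 arrays, the GC-naive difference had opposite signs in the 2 tissues. Each tissue gives 1 pair of arrays, so these differences were not tested. For Aldoc the PP fold minus the pLN fold was -1.11 on the log2 scale (0.32 in pLN, -0.79 in PP). For Pgk1, by its brightest probe set, it was -0.74, and for Tpi1 by its brightest -0.52. The middle control of Gapdh gave -0.38 (0.14 in pLN and -0.24 in PP). The second brightest probe set of Pfkl gave 0.93, from -0.64 in pLN to 0.29 in PP.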

How the results depend on the processing

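The calls depended on the scaling, the probe sets of a gene, the fold tested against and single arrays. Of 15 called genes, Slc2a1 kept direction and call under all alternatives run. Slc16a1 and Rpe kept both wherever they were tested, but were not tested when all 4 arrays had to be above the level. The other 12 lost the call under at least 1 alternative, and 4 changed sign under at least 1. Causes were not tested. The median of all genes moved from -0.05 to 1.21 on the log2 scale under scaling to the hybridisation controls. Changes there are thus relative to that shift. With that scaling, 3330 of all 9790 genes tested were called higher and 182 lower. That scaling gave 11 genes higher, 1 lower and a median of 1.02, with 13 higher and 3 lower in pLN, 16 and 2 in PP, 0 higher and 11 lower in naive PP against pLN, and 3 of the other pathway genes lower; Gapdh turned to 0.15, Pfkl to 0.14 and Pgk1 to 1.28. With the mean of all probe sets, 4 genes were lower (3 in pLN and 5 in PP at 2-fold), the median was 0.50, no gene was 2-fold lower in GC PP or higher in naive PP, and values turned to 0.50 for Pfkp, -0.93 for Pfkfb3, 0.78 for Gapdh, 1.29 for Pgk1 and 0.28 for Pdk1. Quantile normalization gave a median of 0.15, 7 other genes higher, 0 genes higher in naive PP and 0.15 for Gapdh; cyclic loess gave a median of 0.20, 1 gene higher in naive PP and 0.083 for Gapdh. The values as deposited gave 3 genes higher in pLN, and 1 higher and 6 lower in naive PP. Tests against a log2 fold of 1 called 2 genes higher and 2 lower, and 3 and 3 of the other list. Of all 9791 genes tested, they called 964 higher and 579 lower. With each array left out (tissue not in the model, the lone array assumed to vary like the others), 2 to 10 genes were higher and 2 to 11 lower, and 3 to 13 higher and 3 to 12 lower in the other list. With no replicate block, that is with tissue left out of the model, 5 genes were higher and 9 lower. Slc2a3 was then not called (adjusted p = 0.0753, limma). Of all 9791 genes tested, 2079 were higher and 2216 lower in that fit. At 1.5-fold, 1 gene was higher in GC PP, and 9 were higher and 7 lower in naive PP; at 3-fold, 2 were higher and 4 lower in pLN, 6 lower in PP, and 0 lower in GC PP or higher in naive PP. Offsets 4 times larger left 0 genes lower in GC PP, and without probe sets ending in _x_at or _s_at 1 gene was higher in naive PP. The other settings left these counts within 1.5 times. Signal over background limits Ldhb, Pfkm and Slc16a3 most.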

Other observations

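Of 3 probe sets annotated to Gapdh together with its pseudogenes, which were left out above, 2 were tested with limma and neither was called (Gapdh, adjusted p = 0.391 and 0.076; 1 had an unadjusted p under 0.05, at 0.0432). The brightest read 9117 in GC and 19080 in naive cells of pLN, and 9424 and 9061 in those of PP (Gapdh, -0.50 ± 0.49 on the log2 scale). A probe set shared between Hk1 and ribosomal protein genes was called lower in GC cells (-1.97 ± 0.53, adjusted p = 0.0017, limma) and says nothing of Hk1 alone.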
